A study of Mus musculus with 6 samples.

Results

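This account follows 10 genes that decide how a cell handles fatty acids, measured in the kidneys of newborn mice: the lipins Lpin1, Lpin2 and Lpin3, the nuclear receptor Ppara, the coactivators Ppargc1a and Ppargc1b, and the fat oxidation genes Cpt1a, Acadm, Angptl4 and Pdk4. They were chosen from the accession that each array probe targets, and 15 of the array's 39429 probes, reading 10 of its 32451 genes, belonged to them. The choice was made with the difference between the genotypes in view, above all that of Lpin1, so the differences of these 10 genes are given as a description and not as tests. Kidneys were taken about 6 hours after birth from 3 neonates labelled USP10 KO, in which the gene for the deubiquitinating enzyme Usp10 was knocked out, and from 3 labelled USP10 WT, the wild type. All 6 neonates are labelled male, and the allele, the strain and the removed part of the gene are not given in the sources used here. Each sample's total RNA was read on 1 single-colour Agilent expression array, with Cy3 as the dye.

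Lipins are phosphatidate phosphatases that make diacylglycerol for glycerolipid synthesis, and lipin 1 also enters the nucleus, where it can work with the receptor PPAR-alpha (Ppara) and its coactivator PGC-1 alpha (Ppargc1a). PPAR-alpha, once bound by fatty acids, switches on genes of fatty acid import into mitochondria and of beta-oxidation, and PGC-1 coactivators raise mitochondrial gene expression. The kidney, above all its proximal tubule, draws much of its energy from fatty acids, and at birth the neonate changes from a glucose supply through the placenta to fat-rich milk.

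Between 64.4% and 73.9% of 43020 non-control spots per array were well above background, with none saturated. Precision is limited by having 3 arrays in each group. Arrays fell into 2 scans by the scan time in the file headers: KO replicates 1 and 2 and WT replicates 2 and 3 in scan 1, and KO replicate 3 and WT replicate 1 in scan 2. Several arrays went against their labels or stood apart. The single Usp10 probe was brighter on the arrays labelled KO, at 3.52 ± 0.14 (SD, n = 3) against 3.03 ± 0.09 (SD, n = 3) (log2 intensity after subtracting the array's own 75th percentile), so groups are called by their labels throughout. WT replicate 2 had the Y-linked genes Uty, Ddx3y and Eif2s3y not well above background, and Xist was above background on WT replicates 1 and 2, although both are labelled male. WT replicate 1 also had the Y-linked genes above background. On WT replicate 3 and every KO array the Y-linked genes were above background and Xist was not. Sex-linked signal thus went partly with the labelled groups, and its part in the results was not tested. On KO replicate 2 the brightest 1% of spots gave 39.1% of all signal, where the other arrays had 29.4% to 31.9%. All 10 kidney markers and all 12 proximal tubule markers were well above background on all 6 arrays. Of the fat cell markers, Adipoq, Lep, Plin1, Cfd and Ucp1 were well above background on no array, while 3 of 8 white and 3 of 7 brown adipocyte markers were above it on all 6. The summed level of the white list lay between 3.59 and 3.81 on the arrays labelled KO and between 3.07 and 3.78 on those labelled WT, and that of the brown list between 1.42 and 1.50 and between 1.04 and 1.46. Both ranges overlapped between the groups. The white sum was almost wholly Pck1 (3.04 to 3.79), which the proximal tubule also expresses, so it gives no reading of fat cells. The brown sum was mostly Prdm16 (-0.28 to 0.79) and Cox7a1 (-0.05 to 0.39), so it rests on those genes and not on Ucp1. All 6 liver markers, some of which the kidney also expresses, were above background on all arrays, and their summed level, mostly Afp and Apoa2, did not overlap, at 4.94 to 5.21 on the KO arrays and 4.59 to 4.93 on the WT arrays. Alb, which defines liver cells, stood at -5.11, -1.79 and -3.20 on the KO arrays and -1.88, -1.92 and -1.53 on the WT arrays. Adrenal markers (5 of 10 above background on all arrays, Cyp11a1 and Dbh on none) summed to 1.31 to 1.59 against 1.57 to 1.90, and skeletal muscle markers (3 of 8) to -1.52 to -0.45 against -0.89 to -0.12. In the adrenal list 5 markers had a higher and 5 a lower mean on the KO arrays. Akr1b7, the brightest of them, had a log2 difference of -0.55, and Hsd3b1 went the other way with 1.78. No marker of these lists passed in limma over all genes, and the part of these cell types in the results was not tested.

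To place the genes in the genome, the 250 bases before a RefSeq transcription start are printed for a pair of members that stood higher on the arrays labelled KO, Lpin1 and Pdk4, and a pair that stood lower, Cpt1a and Acadm. The sequences are RefSeq's, of build GRCm38.p6, 5′ to 3′ on the strand of the gene. That table held 11 windows of 8 of the 10 genes, with several starts for Lpin2 and Lpin3, and leaves Angptl4 and Ppargc1b. Capitals mark the nuclear receptor half-site AGGTCA, the half-site AGAACA of the glucocorticoid receptor, the E-box CACGTG, the cAMP response element TGACGTCA and the extended site TCAAGGTCA of estrogen-related receptors, which contains AGGTCA, each searched on both strands, so that a match on the opposite strand is printed as the reverse complement of these letters, as AGGTCA is in Cpt1a and Acadm and AGAACA in Lpin1. The windows lie at chr12:16610967-16611216 (minus strand) for Lpin1, chr6:5496279-5496528 (minus strand) for Pdk4, chr19:3323051-3323300 (plus strand) for Cpt1a and chr3:153944644-153944893 (minus strand) for Acadm.
Lpin1: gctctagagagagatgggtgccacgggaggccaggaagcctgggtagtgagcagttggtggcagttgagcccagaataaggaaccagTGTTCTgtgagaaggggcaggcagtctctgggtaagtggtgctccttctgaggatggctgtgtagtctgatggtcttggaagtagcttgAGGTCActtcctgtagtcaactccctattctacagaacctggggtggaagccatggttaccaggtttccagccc
Pdk4: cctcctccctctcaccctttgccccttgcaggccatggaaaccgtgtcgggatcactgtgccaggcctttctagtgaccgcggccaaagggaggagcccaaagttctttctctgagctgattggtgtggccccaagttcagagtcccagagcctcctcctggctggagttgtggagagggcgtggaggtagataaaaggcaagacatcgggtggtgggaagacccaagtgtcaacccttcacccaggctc
Cpt1a: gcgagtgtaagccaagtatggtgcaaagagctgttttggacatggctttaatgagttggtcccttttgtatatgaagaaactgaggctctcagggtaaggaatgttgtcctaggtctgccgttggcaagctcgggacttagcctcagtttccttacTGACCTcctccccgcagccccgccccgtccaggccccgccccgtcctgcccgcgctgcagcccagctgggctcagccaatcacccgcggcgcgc
Acadm: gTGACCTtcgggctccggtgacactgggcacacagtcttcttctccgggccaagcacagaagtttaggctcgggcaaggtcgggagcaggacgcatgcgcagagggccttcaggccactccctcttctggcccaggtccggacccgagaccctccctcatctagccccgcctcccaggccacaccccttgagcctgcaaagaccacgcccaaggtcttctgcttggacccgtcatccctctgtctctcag

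AGGTCA was in 3 of the 11 windows, those of Lpin1, Cpt1a and Acadm, and in 14.0% of all 32851 windows of that length. Counted from its leftmost base, the match lay 74 bases before the start in Lpin1, 94 in Cpt1a and 249 in Acadm. AGAACA was found before Lpin1, 163 bases from the start, and in 1 window each of Lpin2 and Lpin3, so in 3 of 11 beside 16.1% of all windows. CACGTG was in 1 of 11, before Lpin2, beside 6.02%. Neither TGACGTCA nor TCAAGGTCA was found in a member's window, and 1.55% and 0.387% of all windows held them. No motif searched was in the Pdk4 window. Of the genes that share AGGTCA, Lpin1 had a positive difference between the groups and Cpt1a and Acadm negative ones. These matches describe letters in a window, and which start the kidney uses was not measured.

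Of the lipins, Lpin1 differed most between the groups. Its probe A_55_P2083481, which targets NM_001130412, read -1.50, -1.84 and -1.83 on KO replicates 1 to 3 and -3.18, -3.25 and -3.12 on WT replicates 1 to 3, as log2 intensity relative to the array's 75th percentile. The lowest KO array lay well above the highest WT array, and the values of the WT arrays lay close together. The group means were -1.72 ± 0.19 and -3.18 ± 0.06 (SD, n = 3), a log2 difference of 1.46 ± 0.17 (SE), or 2.75-fold higher on the arrays labelled KO. The difference was 1.51 within scan 1, 1.35 within scan 2 and 1.40 against WT replicate 3 alone. Of 21226 genes fitted with limma, 0.759% had a larger absolute difference. Before any scaling the intensities were 166, 85.5 and 92.0 on the KO arrays and 54.5, 51.3 and 66.4 on the WT arrays, so here the groups were also apart in raw signal. After normexp background correction with an offset of 50, the difference was 1.03 with the 75th percentile and 0.86 with quantile normalisation.

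The array carries another probe for the same Lpin1 transcript, A_55_P2083474. It was well above background on none of the 6 arrays, with intensities between 1.49 and 3.78, so the difference of Lpin1 rests on 1 probe. No difference is given for it, and the files do not hold the probes' sequences or positions in the transcript.

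Lpin3, a lipin expressed in gut and kidney among other tissues, stood higher on the arrays labelled KO by less. It read -0.75, -0.45 and -0.63 on the KO arrays and -0.86, -1.14 and -1.21 on the WT arrays. The groups did not overlap, but KO replicate 1 and WT replicate 1 were close. The log2 difference was 0.46 ± 0.18 (SE), with 0.57 within scan 1 and 0.24 within scan 2. Lpin2, the lipin whose loss causes an inflammatory bone disease in humans, read -1.31, -1.50 and -1.54 against -1.58, -1.70 and -1.39. Its groups overlapped, and the difference of 0.11 ± 0.17 (SE) was within the spread between arrays and turned to -0.06 against WT replicate 3 alone.

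**Figure D1:**
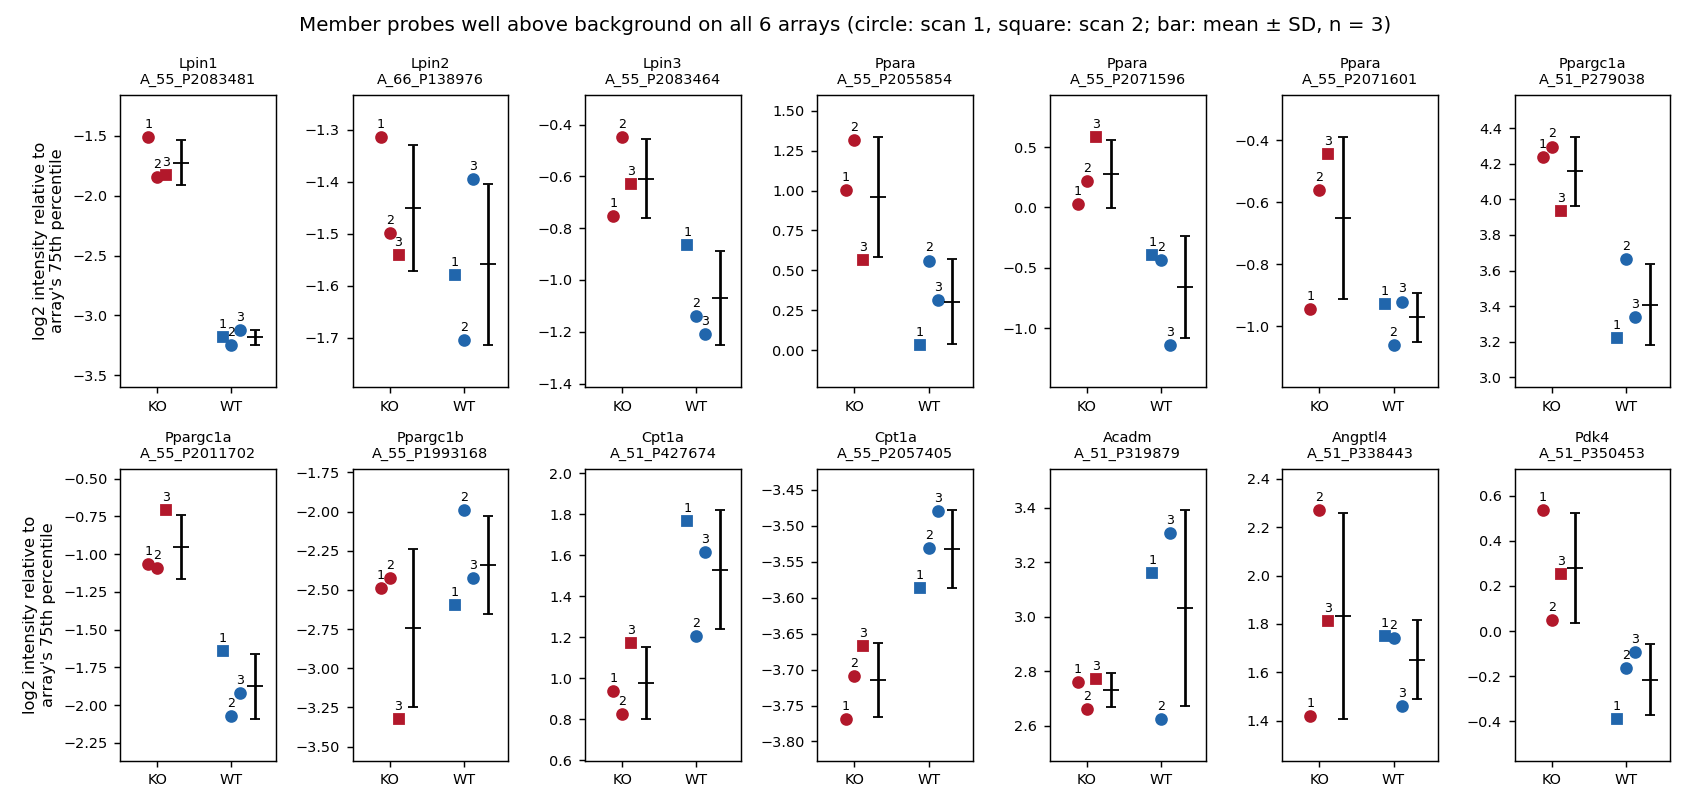
Log2 intensity relative to each array's 75th percentile (vertical axes, 1 scale per panel) for the 14 member probes well above background on all 6 arrays, by labelled group. Points are arrays with their replicate number, circles for scan 1 and squares for scan 2, and bars give mean ± SD (n = 3); Lpin1 on the arrays labelled KO lies between -1.84 and -1.50, far above the arrays labelled WT, while Lpin2 and Angptl4 overlap.

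Ppara, the receptor that fatty acids activate, was read by 3 probes, all targeting NM_011144 and all with a positive difference. Probe A_55_P2055854 read 1.00, 1.32 and 0.57 on the KO arrays and 0.03, 0.56 and 0.32 on the WT arrays, so that KO replicate 3 and WT replicate 2 nearly met. Probe A_55_P2071596 read 0.03, 0.22 and 0.59 against -0.39, -0.44 and -1.14, with a wider gap. Probe A_55_P2071601 read -0.94, -0.56 and -0.44 against -0.93, -1.06 and -0.92, where KO replicate 1 lay among the WT arrays. The log2 differences were 0.66 ± 0.24, 0.93 ± 0.26 and 0.32 ± 0.19 (SE) in that order, and within scans they ran from 0.24 to 0.98. The 3 probes thus shared their direction and differed in size.

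Ppargc1a, which encodes PGC-1 alpha, was higher on every array labelled KO by both of its probes. The bright probe A_51_P279038 read 4.24, 4.30 and 3.93 on the KO arrays and 3.22, 3.66 and 3.34 on the WT arrays. The dimmer probe A_55_P2011702 read -1.07, -1.09 and -0.71 against -1.64, -2.07 and -1.92. Neither probe's groups overlapped. The log2 differences were 0.75 ± 0.19 and 0.92 ± 0.19 (SE), or 1.68-fold and 1.89-fold higher, with 0.77 and 0.92 within scan 1 and 0.71 and 0.93 within scan 2. Ppargc1b, the related coactivator PGC-1 beta, did not share this direction. It read -2.49, -2.42 and -3.33 on the KO arrays and -2.60, -1.99 and -2.43 on the WT arrays, a log2 difference of -0.41 ± 0.29 (SE). KO replicate 3 was lowest, the groups overlapped, and normexp with the 75th percentile left a difference of -0.05.

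Among the genes that these regulators act on, Pdk4 was higher and Cpt1a lower on the arrays labelled KO. Pdk4 encodes the kinase that shuts off pyruvate dehydrogenase and so spares glucose when fat is burnt. It read 0.54, 0.05 and 0.25 on the KO arrays and -0.39, -0.17 and -0.09 on the WT arrays. The groups did not overlap, with a small gap between KO replicate 2 and WT replicate 3. The log2 difference was 0.50 ± 0.19 (SE), or 1.41-fold, with 0.42 within scan 1, 0.65 within scan 2 and 0.37 against WT replicate 3 alone.

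Cpt1a encodes the carnitine palmitoyltransferase that admits long-chain fatty acids to the mitochondrion, the rate-limiting step of their oxidation. Probe A_51_P427674 read 0.94, 0.82 and 1.17 on the KO arrays and 1.77, 1.21 and 1.62 on the WT arrays, with no overlap but with KO replicate 3 and WT replicate 2 close to each other. The log2 difference was -0.55 ± 0.20 (SE), so the signal was 1.47-fold higher on the arrays labelled WT, with -0.53 within scan 1, -0.59 within scan 2 and -0.64 against WT replicate 3 alone. This probe is printed in 10 spots per array, and the SD between spots of an array was 0.018 to 0.044, against 0.18 and 0.29 between arrays of a group. The spot SD covers a single hybridisation and leaves out labelling, hybridisation and the animal. The dim probe A_55_P2057405, with intensities between 23.4 and 51.9, read -3.77, -3.71 and -3.67 against -3.59, -3.53 and -3.48. It too was lower on every array labelled KO, by a log2 difference of -0.18 ± 0.15 (SE), but this was 0.16 with normexp and the 75th percentile.

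Acadm, the medium-chain acyl-CoA dehydrogenase of beta-oxidation, read 2.76, 2.66 and 2.77 on the KO arrays and 3.16, 2.62 and 3.31 on the WT arrays. The KO arrays were nearly level and WT replicate 2 lay below all of them, so the groups overlapped at a log2 difference of -0.30 ± 0.21 (SE). WT replicate 2 was also the lowest WT array for Cpt1a. Without it the differences were -0.50 for Acadm and -0.71 for Cpt1a. Angptl4, a secreted inhibitor of lipoprotein lipase and a classical PPAR target, read 1.42, 2.27 and 1.81 against 1.75, 1.74 and 1.46. KO replicate 1 was the lowest of the 6 arrays and KO replicate 2 the highest. The difference of 0.18 ± 0.24 (SE) was smaller than the spread between arrays and became -0.04 without KO replicate 2.

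Counted over the 10 genes, each by its brightest probe, 7 differences were positive and 3 negative, with a median of 0.32, beside 53.3% positive and a median of 0.03 over all 21226 genes. Lpin1, the gene for whose difference the set was drawn up, was the only member past an adjusted p of 0.05 in limma. With an adjusted p of 0.0489 it was last of the 17 genes that passed, or 0.0801% of all genes, 0.0188% higher and 0.0612% lower. It lost that call without any single one of the 6 arrays (adjusted p between 0.0861 and 0.286) and kept it in 3 of 17 alternatives with a test (0.0313 to 0.597 over all of them). Groups did not overlap for 5 members with a positive difference (Lpin1, Lpin3, Ppara, Ppargc1a and Pdk4), beside 10.1% of all genes, and for 1 with a negative difference (Cpt1a), beside 8.1%. Since the same contrast chose the members, nothing is read from these shares.

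**Figure D2:**
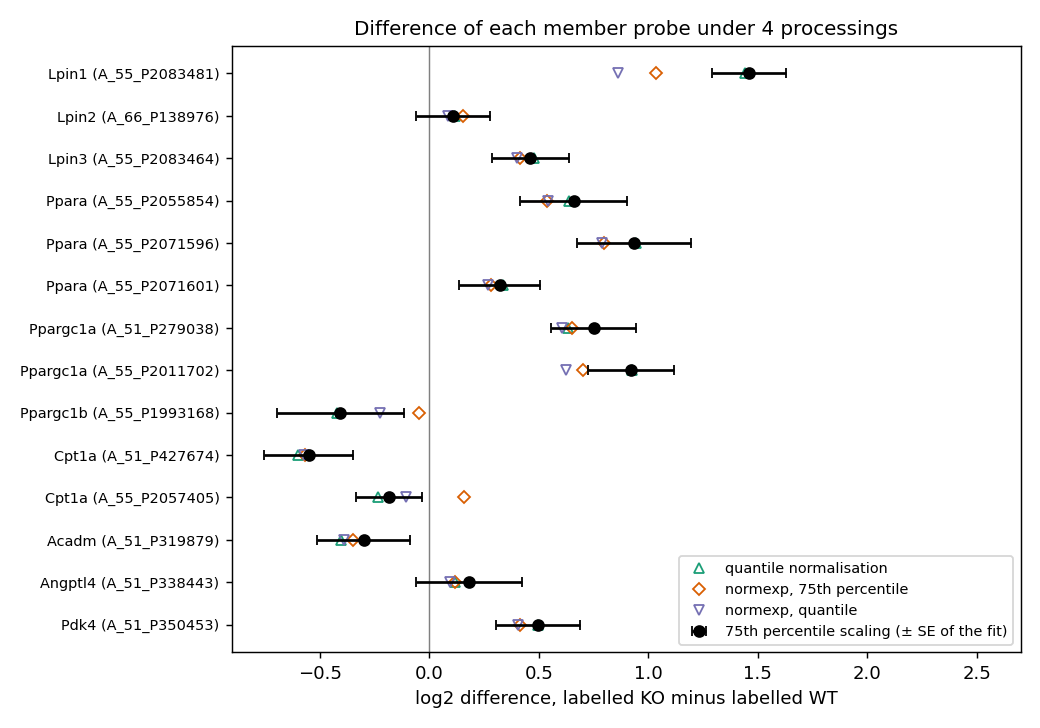
Log2 difference (labelled KO minus labelled WT, horizontal axis) of each of the 14 member probes with scaling on the 75th percentile (black, ± SE of the limma fit, n = 3 against 3) and with 3 other processings (open symbols). Lpin1 shrinks from 1.46 to 0.86 with normexp and quantile normalisation but stays the largest, and the dim Cpt1a probe A_55_P2057405 crosses 0 to 0.16 with normexp and the 75th percentile.

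These counts differed between scaled and unscaled signal. The 75th percentile of the intensities was 306 to 472 on the arrays labelled KO and 488 to 579 on those labelled WT, so every value on a KO array was raised relative to the WT arrays. In unscaled intensity 1 of the 14 detected member probes was higher on every KO array (Lpin1), beside 1.01% of all probes tested, and 3 were lower (both Cpt1a probes and Angptl4), beside 29.7%. Being lower in raw signal was thus common on these arrays, and nothing is read from the members' counts. The scaled values gave 7 and 2 probes, beside 9.71% and 8.12%. Angptl4 stood at 1261, 1476 and 1145 on the KO arrays against 1658, 1633 and 1595 on the WT arrays before scaling. The bright Ppargc1a probe stood at 8929, 6024 and 4985 against 4597, 6187 and 5857, with overlapping groups. Lpin1 kept apart with and without scaling, against the direction common in raw signal. Cpt1a did so too, but in that common direction, so its raw signal adds little. Quantile normalisation, which sets the arrays to a common distribution, and scaling on the median left each member's direction as it was, with the median of all genes moving to -0.02 and -0.01. With normexp and the 75th percentile that median was 0.14.

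Cpt1a and Acadm are strongly expressed in the proximal tubule, and in RNA of whole kidney fewer tubule cells and less RNA per cell cannot be told apart. The summed level of the 12 proximal tubule markers was 6.78, 6.03 and 6.53 on the arrays labelled KO and 6.64, 6.80 and 6.64 on those labelled WT. KO replicate 2 was the lowest of the 6, and no marker passed in limma over all genes (8 of 12 were lower, with a median log2 difference of -0.32). On that array Slc5a2, the glucose transporter of the early proximal tubule, stood at -3.23 against 0.03 to 0.90 on the others, and Miox, a tubule oxygenase, at 0.12 against 3.02 to 3.98. The marker sum of KO replicate 1 lay within the range of the WT arrays, and those of KO replicates 2 and 3 lay below it. Cpt1a stood at 0.94, 0.82 and 1.17 on KO replicates 1 to 3. The part of tubule cells in these differences was not tested. Without KO replicate 2 the log2 difference of Cpt1a was -0.47, of Acadm -0.26, of Pdk4 0.61, of Ppargc1a 0.68 and of Lpin1 1.52.

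**Figure D3:**
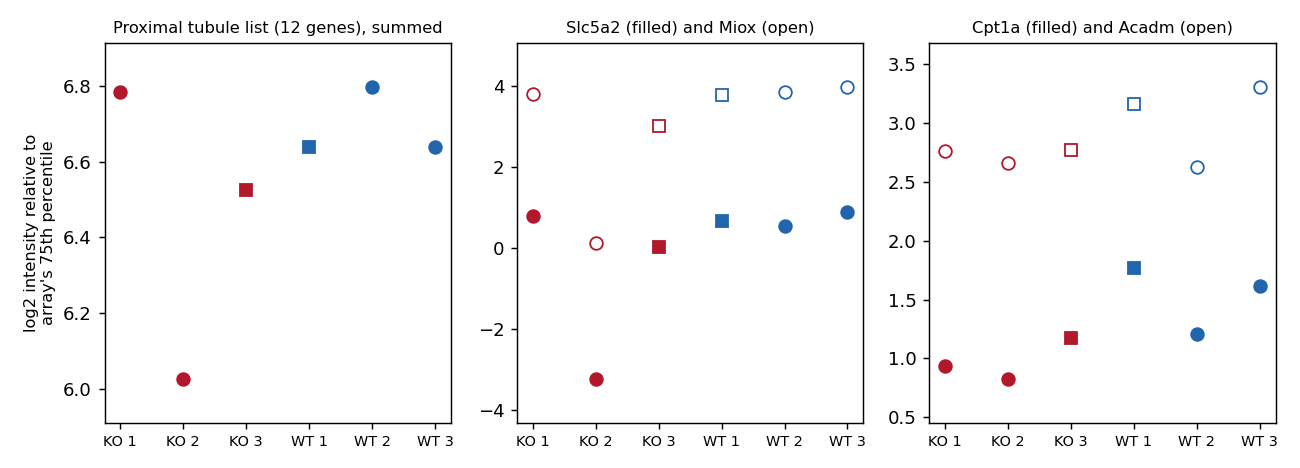
Log2 intensity relative to the array's 75th percentile on each array (red labelled KO, blue labelled WT; circles scan 1, squares scan 2) for the summed proximal tubule markers, for Slc5a2 and Miox, and for Cpt1a and Acadm. KO replicate 2 is lowest for the marker sum (6.03), Slc5a2 (-3.23) and Miox (0.12), and Cpt1a is lower on all 3 arrays labelled KO.

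Close relatives of the members were singled out after their values were known, outside the rule for named genes. None of 13 passed in limma over all genes or at an unadjusted p of 0.05. Beside Cpt1a, the muscle form Cpt1b differed by 0.56 ± 0.33 (SE) and the inner-membrane enzyme Cpt2 by 0.07 ± 0.18, both as log2 differences with overlapping groups. Beside Acadm, the long-chain dehydrogenase Acadl differed by -0.32 ± 0.19 and the very-long-chain enzyme Acadvl by 0.15 ± 0.17. Beside Pdk4, the other kinases Pdk1, Pdk2 and Pdk3 differed by -0.06 ± 0.23, 0.04 ± 0.15 and -0.51 ± 0.28. Beside Ppara, the receptors Ppard and Pparg both differed by 0.07, with SE of 0.18 and 0.22.

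The wider pathway was followed in 9 lists of other genes, 154 in all, of which 149 were measured. None passed an adjusted p of 0.05 over all genes in limma, nor with the scan as a block, and 16 had an unadjusted p under 0.05, 11 higher and 5 lower (over all genes 6.15% and 4.23%). Of the 149, 81 had a positive difference, with a median of 0.02 beside 0.03 over all genes. The pathway as a whole therefore gave no call in these arrays, and the values below are those of the genes with the smallest p in each list.

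Mitochondrial beta-oxidation split evenly, with 9 of 19 differences positive, a median of -0.04 and no gene at an unadjusted p under 0.05. The isomerases Eci1 and Eci2 went opposite ways, at -0.37 ± 0.17 and 0.40 ± 0.20 (log2 difference ± SE, adjusted p = 0.502 and 0.511 in limma), and Etfdh, which passes electrons on to ubiquinone, differed by 0.34 ± 0.19. In peroxisomal beta-oxidation 11 of 15 were negative, with a median of -0.14, or 0.06 with normexp and the 75th percentile. Its leading gene went the other way. Pex11a, a PPAR-alpha target that makes peroxisomes divide, read 0.65, 1.05 and 1.01 on the KO arrays and -0.18, -0.21 and -0.60 on the WT arrays. With groups clearly apart it differed by 1.23 ± 0.20 (SE), 2.35-fold, and came closest of all pathway genes to the threshold (adjusted p = 0.0998 in limma, with 0.0622 to 0.597 over its alternatives). The thiolase Acaa1b differed by -0.67 ± 0.22. Abcd2, a peroxisomal importer of very-long-chain fatty acids, failed the background flag on all 3 KO arrays and passed it on all 3 WT arrays. It was thus kept through the WT group alone, and dropped out where probes had to be above background on all 6 arrays. Its signal was 2.81-fold lower on the KO arrays, an estimate from readings that failed the flag and not a bound. Normexp turned the difference of Abcd2 to 0.13 with the 75th percentile and left -0.27 with quantile normalisation.

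Among uptake and activation genes the acyl-CoA synthetases Acsl1, Acsl4 and Acsl3 had the smallest p. Acsl1, which activates long-chain fatty acids and is another PPAR target, read 3.09, 3.96 and 3.65 on the KO arrays and 2.65, 2.74 and 2.34 on the WT arrays, 0.99 ± 0.25 (SE) higher on the log2 scale. Acsl4 and Acsl3 differed by 0.83 ± 0.30 and 0.46 ± 0.20. None passed in limma (adjusted p = 0.330, 0.437 and 0.483), and the list's median was 0.01. Acsl5 of the same family, singled out outside the rule for named genes, went the other way, at -0.28 ± 0.26 (SE). Acsl6 was not measured. Among ketone body genes, the dehydrogenase Bdh1 and the transferase Oxct1, which opens ketone use, differed by 0.40 ± 0.34 and -0.15 ± 0.21 (log2 difference ± SE), and neither passed in limma (adjusted p = 0.664 and 0.795).

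Around Pdk4, 7 of 12 genes of the pyruvate dehydrogenase complex, its regulators and the pyruvate carrier had a positive difference, with a median of 0.10. The complex's subunit Pdhx differed by 0.50 ± 0.18, the opposing phosphatase Pdp1 by 0.48 ± 0.18 and the carrier Mpc1 by 0.44 ± 0.20 (adjusted p = 0.445, 0.454 and 0.496 in limma). Around the lipins, 15 of 23 genes of glycerolipid synthesis were positive, with a median of 0.16. Gpam, the first acyltransferase of the route, differed by 0.63 ± 0.21, but by 0.08 with normexp and quantile normalisation. Plpp2, another lipid phosphatase, differed by 0.37 ± 0.20. Ctdnep1, the phosphatase that activates lipin 1 by dephosphorylation, differed by -0.39 ± 0.23 (adjusted p = 0.423, 0.526 and 0.556).

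Lipid droplet genes went in both directions. Pnpla2, the lipase that opens triglyceride breakdown, read 1.86, 2.31 and 1.86 on the KO arrays against 1.23, 1.47 and 1.29 on the WT arrays, and Mgll, which completes that breakdown, differed by 0.63 ± 0.24. Plin2, the coat protein of droplets, read -0.58, -1.15 and -0.50 against 0.34, -0.08 and -0.04, lower on every array labelled KO. The differences of Pnpla2 and Plin2 were 0.68 ± 0.19 and -0.82 ± 0.23 (SE; adjusted p = 0.362 and 0.368 in limma). Of 28 receptors and coregulators, 17 were positive, with a median of 0.07. The orphan receptor Esrrb, a PGC-1 partner, differed by 1.03 ± 0.34, with KO replicate 2 the highest array at 2.16. The coactivator Ncoa1 differed by 0.54 ± 0.18 and the receptor Hnf4a by 0.46 ± 0.18 (adjusted p = 0.423, 0.423 and 0.473). Of 16 other PPAR target genes 9 were positive, with a median of 0.06. Cyp4a14, a fatty acid hydroxylase, differed by 1.01 ± 0.45, the glycerol phosphate dehydrogenase Gpd1 by -0.69 ± 0.31 and the glycerol kinase Gk by 0.29 ± 0.15 (adjusted p = 0.483, 0.486 and 0.529). The groups of the dim Cyp4a14 probe overlapped. With normexp its difference was 0.61 with the 75th percentile and 0.36 with quantile normalisation.

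**Figure D4:**
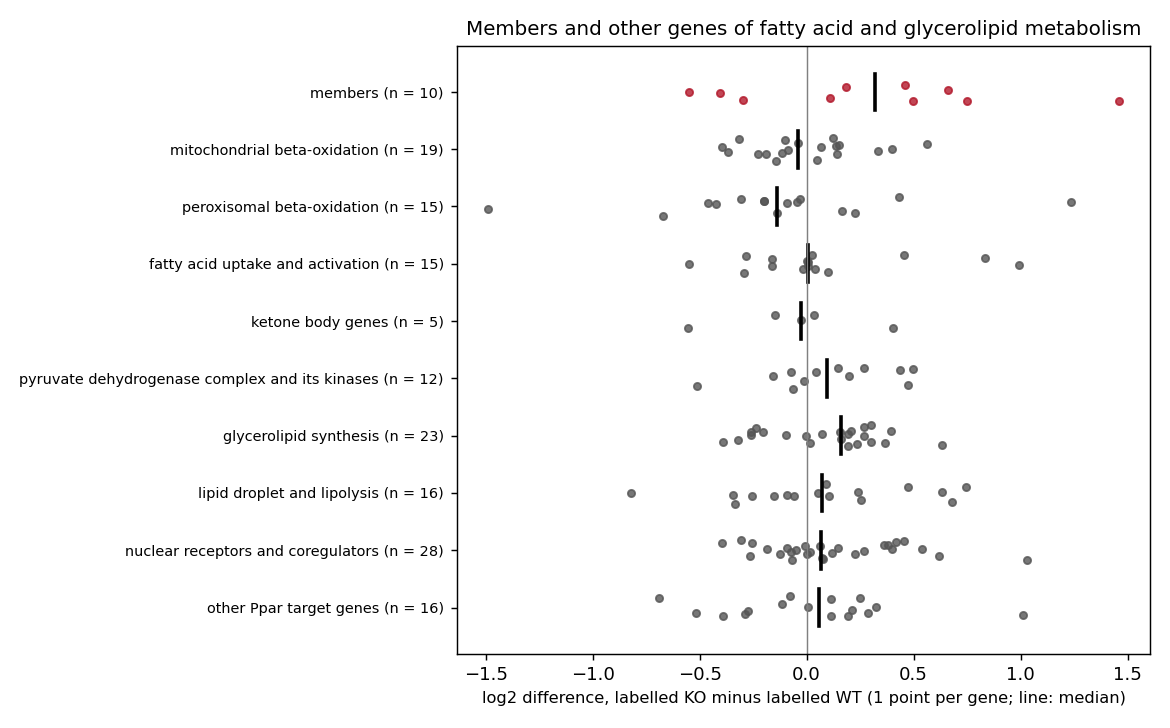
Log2 difference (labelled KO minus labelled WT, horizontal axis) of the 10 members, each by its brightest probe, and of 149 other genes in 9 lists. Each point is a gene and each black line a median; the list medians lie between -0.14 and 0.16, and single genes such as Pex11a (1.23) and Acsl1 (0.99) stand out from their lists without passing the test.

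Genes whose pattern over the 6 arrays was most like that of Lpin1 were ranked by Pearson correlation among 14497 other named genes. The 5 highest were Crispld2 (r = 0.995), the matricellular gene Ccn2 (0.991), the bile acid receptor gene Nr1h4 (0.986), the lipid transporter gene Mfsd2a (0.981) and Fam168b (0.980). Crispld2 read 2.30, 2.10 and 2.10 on the KO arrays and 1.26, 1.33 and 1.42 on the WT arrays. Of the members, Ppargc1a (0.897) and Pdk4 (0.886) came closest, and 0.980% and 1.26% of the ranked genes had a higher value. Cpt1a ran against Lpin1 (-0.793). These correlations, over 6 arrays that share the split between the labelled groups, are a description, and no test is attached.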

How the data were processed

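Cy3-labelled RNA was hybridised to single-colour Agilent mouse arrays. Per the file headers, the deposited intensities are linear values with the background taken off, without scaling across arrays, from Agilent Feature Extraction 11.0.1.1 (9.1 per the submitters' processing notes). Flags for outliers and signal well above background (deposited with the other columns) were used.

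Of 44397 spots per array, 1377 controls and outlier spots were left out. The 75th percentile of log2 intensity was subtracted and spots of a probe averaged. Accessions named 69.1% of 39429 probes through RefSeq (GRCm38.p6). Headers name mm9 for the design, so only names were taken. Probes were kept where every array of a group (KO, WT or both) had them well above background, and each gene was read by its brightest, giving 21226 genes and 25833 probes. Probes without a name were counted under their accession, and 15202 of the 21226 genes had a name. Genes were fitted with limma 3.58.1 in R 4.3.3 without covariates (two-sided p, adjusted by Benjamini-Hochberg across every gene fitted, called under 0.05), tested on simulated data. The SE is that of the moderated fit over probes for members and over genes otherwise. No source says whether kidneys were pooled, and p-values set the group difference against the spread between these samples within a group. Members and lists were chosen with earlier results of these data known. Named were the members, Usp10, the 3 genes of smallest p per list and any past the threshold, and the 5 most like Lpin1; 1 named gene is not reported here. Alternatives were other scalings, normexp (offset 50, on median signals, since the files give no mean signal), filters, variance models, blocks, means of probes, and leaving out arrays.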

Additional observations from a re-analysis of the deposited data

How the results depend on the processing

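In limma 17 genes and 27 probes passed, and 0 of the 149 pathway genes, a count that was 0 in all 17 alternatives with a test (6 to 24 at an unadjusted p under 0.05). The counts of genes and probes moved: to 27 genes with normexp and the 75th percentile, to 0 and 0 with normexp and quantile normalisation (2245 genes and 2723 probes at an unadjusted p under 0.05) and without a filter for dim probes (2051 and 2461), to 1 and 1 with probes above background on all 6 arrays, to 45 and 54 with an intensity trend and robust variance, to 62 and 67 with the scan as a block, to 5 genes with the mean of probes, and to 0 and 0 against WT replicate 3 alone, whose spread is assumed to be that of the other group (1849 and 2203). Leaving out single arrays gave 0 to 13 genes and 0 to 27 probes: 13 and 27 without KO replicate 3, 1 and 1 without WT replicate 3, and 0 without each of the others (1314 to 2691 genes at an unadjusted p under 0.05). With the replicate block, limma called 0 genes and 0 probes (1609 and 1898 at an unadjusted p under 0.05). Same-numbered arrays correlated at -0.40, 0.48 and -0.60 in their deviations from the group means, so the numbers were not taken as a pairing.

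The direction held in all 19 alternatives for 8 members. Lpin2 turned against WT replicate 3 alone (-0.06) and Angptl4 without KO replicate 2 (-0.04). Among named pathway genes Abcd2 turned with normexp and the 75th percentile (0.13), and Oxct1 when set against WT replicate 3 alone (0.014) and when single arrays were left out (-0.26 to 0.032, the latter without KO replicate 2). The causes were not tested, and the normexp offset was kept at 50 throughout. Signal over background limits Abcd2, the dim Cpt1a probe and the undetected Lpin1 probe.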
